A study of Daphnia magna with 40 samples.

Results

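Juvenile Daphnia magna exposed to fluoxetine were set directly against juveniles exposed to fluvoxamine. Daphnia magna is a freshwater crustacean, and all animals came from clone F, a laboratory line that reproduces without mating. The comparison used every juvenile array whose treatment label was fluoxetine at 40 µg/L (FX40, 4 arrays) or fluvoxamine at 10 µg/L (FV10, 4 arrays, spelled fluovoxamine in the labels), which made 8 of the 40 arrays of the series. The other 12 juvenile arrays, 4 each of nonylphenol at 20 µg/L (NP20), nonylphenol at 60 µg/L (NP60) and the acetone carrier alone, entered the estimate of the spread. Each juvenile array measured RNA of whole animals, pooled from 20 juveniles that were under 1 day old at the start and were kept for 3 days in 0.5 L of water. Every treatment had 4 such vessels, and all of them, including those labelled acetone, received acetone.

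Fluoxetine and fluvoxamine are used as antidepressants. Both inhibit the transporter that carries released serotonin back into nerve cells, so that more serotonin remains outside the cells. In crustaceans serotonin acts as a neurotransmitter and as a neurohormone, with roles in behaviour, feeding and the release of other hormones. Both molecules bear a trifluoromethyl-substituted phenyl ring, and fluoxetine is a phenoxy ether whereas fluvoxamine is an oxime ether. The doses differed, so the effects of compound and of dose cannot be told apart in any value below. The series text names other amounts, 80 ppb of fluoxetine and 30 ppb of fluvoxamine, and it is unsettled which of them the animals received.

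The number of single probes that separated the compounds was small with the settings used here and depended on them. Of 12879 probes tested, 1 was higher and 1 was lower in FX40 than in FV10 at an adjusted p under 0.05 in limma, which is 0.0155% of those tested (0.00776% in each direction). The count was 630 with normexp background correction plus quantile normalization and 838 without FV10 array C. It was 0 with slide or replicate letter as a fixed block, and 2 with slide as a random block. Before adjustment the picture was broader. At an unadjusted p under 0.05 limma gave 2226 probes (17.3%), where 644 would be given by chance if no probe differed, with 1092 higher (8.48%) and 1134 lower (8.81%). All 4 FX40 values lay beyond all 4 FV10 values for 966 of the 12611 probes with complete values (7.66%), 596 higher (4.73%) and 370 lower (2.93%).

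The probes carry identifiers and no gene names. None of the 14338 probe identifiers matched the gene table used here, so neither the function nor the genomic position of any probe is given. Levels are log2 of the processed signal relative to the 75th percentile of the array, and a difference is the FX40 mean minus the FV10 mean on that scale. A level of one probe cannot be set against that of another probe.

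DM08363P1 was the probe that was higher in FX40. Its levels were 5.77, 6.13, 5.997 and 6.41 in FX40 arrays A to D, against 3.97, 4.07, 4.09 and 3.86 in FV10 arrays A to D. The lowest FX40 value lay far above the highest FV10 value, and both groups were tight. The FX40 mean was 6.08 ± 0.27 and the FV10 mean was 3.996 ± 0.11 (SD, n = 4 each), a difference of 2.08 (SE 0.30, 95% interval 1.46 to 2.71, limma adjusted p = 0.00967), or 4.23-fold. All 8 spots were well above background and none was saturated. The processed signal before scaling lay between 19122 and 35869 intensity units in FX40 and between 3200 and 6736 in FV10. In the other juveniles DM08363P1 stood at 5.66 ± 0.71 in NP20, 6.16 ± 0.23 in NP60 and 6.37 ± 0.38 in acetone (SD, n = 4 each). The FV10 arrays were thus the low ones among the 5 juvenile groups, and no array of another group fell as low. The nearest was NP20 array D at 4.61.

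DM09934P1 was the probe that was lower in FX40. Its levels were -0.22, -0.49, 1.38 and 1.58 in FX40, against 8.29, 7.94, 4.35 and 5.35 in FV10. The groups did not overlap, but FV10 arrays A and B were well above C and D. The means were 0.56 ± 1.07 in FX40 and 6.48 ± 1.93 in FV10 (SD, n = 4 each), with a difference of -5.92 (SE 0.82, 95% interval -7.65 to -4.20, limma adjusted p = 0.00967), which is 60.6-fold lower in FX40. The other juvenile groups lay with FX40, at -1.21 ± 0.31 in NP20, 0.10 ± 1.45 in NP60 and -0.82 ± 0.87 in acetone (SD, n = 4 each).

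A further probe was named in each direction because it had the largest difference among probes that were measured well on all 8 arrays and did not overlap. DM02644P3 stood at 4.06, 4.09, 4.02 and 3.95 in FX40, against 0.54, -0.97, 0.28 and -0.39 in FV10. The 4 FX40 values agreed within a narrow band and the FV10 values were all far lower. The difference was 4.16 (SE 0.94, 95% interval 2.18 to 6.15), and the adjusted p in limma was 0.118, so DM02644P3 did not pass the threshold. Its levels in other juveniles were 0.44, 4.07, 1.15 and 3.92 in NP20, 4.09, 3.87 and -0.97 in NP60 arrays A, C and D (array B gave no value), and 0.12, 0.46, -0.57 and -0.89 in acetone. They therefore lay near the FX40 level or near the FV10 level, with arrays of both kinds inside each nonylphenol group.

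DM01849P2 was at 0.24, 1.23, 1.05 and 1.47 in FX40, against 4.82, 4.61, 4.22 and 4.39 in FV10. All FX40 values were below all FV10 values. The difference was -3.51 (SE 0.80, 95% interval -5.20 to -1.82, limma adjusted p = 0.118), which did not pass. DM01849P2 stood at 1.43, 3.36, 4.75 and 0.40 in NP20, at -0.24, 1.11, 2.45 and 3.95 in NP60, and at 4.83, 4.21, 4.11 and 4.10 in acetone. Here acetone lay with FV10, and the nonylphenol arrays were again spread over the whole distance between the compounds.

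**Figure D1:**
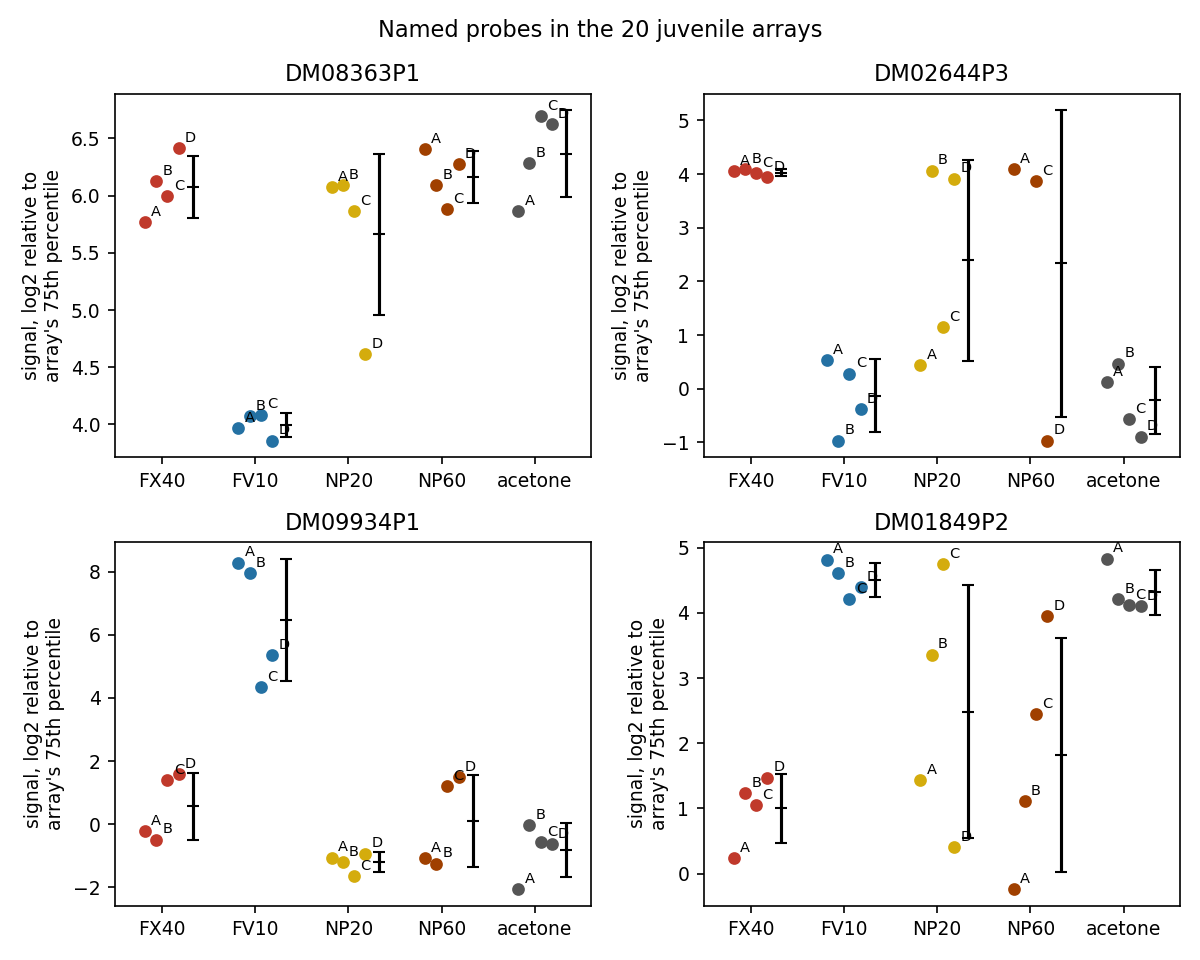
Level of 4 probes (y axis, log2 signal relative to the 75th percentile of the array) in the 20 juvenile arrays, by treatment (x axis), with a point per array labelled by replicate letter, filled where well above background, and the mean ± SD as a black bar. DM08363P1 averages 3.996 in FV10, the lowest group, DM09934P1 averages 6.48 in FV10, the highest group, and DM02644P3 and DM01849P2 are split within NP20 and within NP60.

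That split was followed over all probes that were at least 4-fold apart, had an unadjusted p under 0.05 and did not overlap between the compounds, a description chosen after the values had been seen. Of the 12611 probes with complete values, 45 such probes were higher in FX40 and 64 lower. Without the limits on fold and p, 596 (4.73%) and 370 (2.93%) did not overlap in these directions. For each probe a position was set on which 0 is the FV10 mean and 1 is the FX40 mean, and the median over the probes was taken for every array. FX40 and FV10 arrays lie near 1 and 0 by construction, whereas the levels of the 12 other juvenile arrays entered the choice of probes only through the shared estimate of the spread.

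Over the 45 probes higher in FX40, the NP20 arrays A to D had median positions of 0.171, 1.00, 0.420 and 0.842. The NP60 arrays A to D had 0.997, 0.196, 0.988 and 0.349. The acetone arrays A to D had 0.179, 0.458, 0.170 and -0.101. Arrays B and D of NP20 and arrays A and C of NP60 were thus at or close to the FX40 level, while the remaining nonylphenol arrays and all 4 acetone arrays were nearer to FV10. The share of the 45 probes that lay nearer to FX40 was 91.1% in NP20 array B, 73.3% in NP20 array D, 97.8% in NP60 array A and 91.1% in NP60 array C. In the other 8 of these 12 arrays the share ran from 27.3% to 42.2%.

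Over the 64 probes lower in FX40, NP20 arrays A to D had median positions of 0.268, 0.901, 0.1997 and 0.789, and NP60 arrays A to D had 1.36, 1.06, 0.859 and 0.320. The acetone arrays A to D had 0.352, 0.326, 0.732 and 0.462. The FV10 arrays A to D themselves had -0.265, -0.1315, 0.055 and 0.303, so acetone arrays A and B were close to FV10 array D. The order of the nonylphenol arrays was like that over the probes higher in FX40, except for NP60 array B, which lay at the FX40 level here and near FV10 there. With quantile-normalized values the 4 high arrays of the first set of probes stood at 0.988 (NP20 B), 0.855 (NP20 D), 1.01 (NP60 A) and 0.981 (NP60 C), and the highest of the other 8 at 0.476. The labels give the animals of one treatment the same dose and time, and no label names a difference between the vessels.

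**Figure D2:**
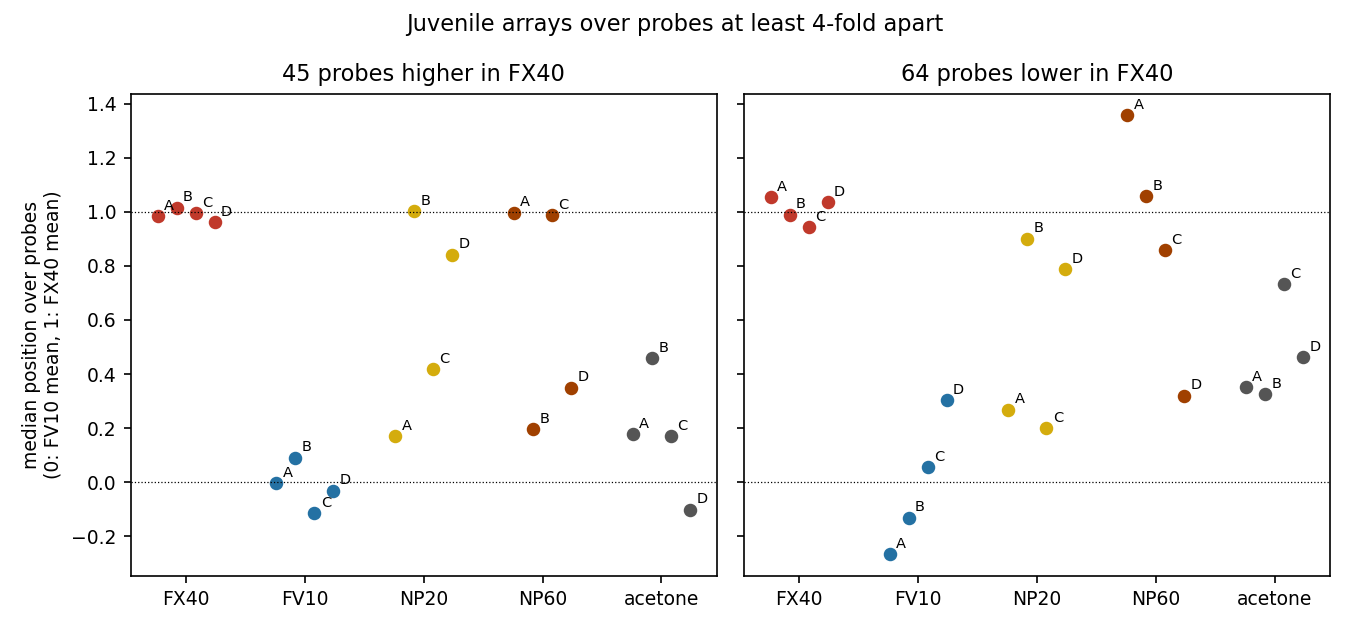
Median position of each juvenile array (y axis, 0 for the FV10 mean and 1 for the FX40 mean of a probe) over the 45 probes at least 4-fold higher in FX40 (left) and the 64 at least 4-fold lower (right), by treatment (x axis), with a point per array labelled by replicate letter. On the left, 2 NP20 arrays and 2 NP60 arrays lie between 0.842 and 1.00, and the other nonylphenol and acetone arrays lie at 0.458 or below.

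Single adult arrays also ran from one level to the other over the 45 probes. The positions were 0.287, 1.02, 0.224 and 0.812 in adult FX40 arrays B, C, F and G, against 0.343, 0.142, 0.400 and 1.04 in adult FV10 arrays A, B, E and H. Each adult compound group therefore held arrays near both ends.

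The 2 probes with the highest bound among those detected in FX40 and not in FV10 are described next. A probe was counted here if it was well above background on all 4 arrays of a compound and on none of the other, which held for 45 probes in FX40 and 38 in FV10, while 8399 were above background on all 8 arrays and 1224 on none. DM11999P1 stood at -1.18, -1.24, -1.25 and -1.04 in FX40, against -4.59, -3.99, -5.85 and -4.06 in FV10, where it was not well above background. Its bound was 10.9-fold higher in FX40. For a bound the dim level is, array by array, the higher of the dim spot and the weakest signal well above background. Here it equals the measured difference of 3.45 (95% interval 1.61 to 5.29, limma adjusted p = 0.126). Such a bound allows for dim spots and not for the spread between arrays, so it is no lower limit. DM06509P2 stood at -2.41, -1.60, -1.75 and -2.53 in FX40, against -5.39, -3.59, -6.39 and -5.95 in FV10. Its bound was 9.55-fold higher in FX40 (measured difference 3.26, 95% interval 1.65 to 4.87, limma adjusted p = 0.118). In NP20 array B DM11999P1 stood at -1.08, and in NP20 array A at -4.11, the high and low arrays of DM02644P3 in that group. Neither probe was particular to FX40 among the juveniles. DM11999P1 was well above background on 4 NP20, 3 NP60 and 3 acetone arrays, and DM06509P2 on 3 NP20, 4 NP60 and 1 acetone arrays.

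The probes named for detection in FV10 and not in FX40 were more spread within FV10. DM06973P1 stood at 0.09, 2.13, 3.66 and -2.59 in FV10, and the FX40 values, none well above background, lay between -4.50 and -3.84. Its FV10 arrays ranged widely. The bound of 29.0-fold lower in FX40 equals the measured difference of -4.86 (95% interval -8.39 to -1.32, limma adjusted p = 0.187). DM07933P3 stood at -0.97, -1.23, -2.79 and -3.03 in FV10. Its bound was 8.90-fold lower in FX40 (measured difference -3.19, 95% interval -4.55 to -1.82, limma adjusted p = 0.118). Here FV10 arrays A and B were again above C and D. In the other juveniles DM06973P1 was well above background on 3 arrays each of NP20, NP60 and acetone, with NP20 array A at 4.42. DM07933P3 was well above background on 3 NP20, 1 NP60 and 3 acetone arrays.

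The breadth of the weaker differences was then described. The median difference over all tested probes was -0.04 and the median absolute difference was 0.47, with 5% of probes below -1.40 and 5% above 1.00. Differences of at least 2-fold were measured for 2120 probes (16.5%), 637 higher and 1483 lower in FX40. The unadjusted 95% interval had a median half-width of 0.88. After adjustment, the same fit on simulated data called 16% of probes changed 2-fold, a log2 change of 1, and 64% of those with a log2 change of 2. The simulated arrays had equal and independent spread, unlike the data, so these shares need not hold for this comparison. For 3318 probes (25.8%) the interval lay wholly within a 2-fold change in either direction, and for 68 it lay wholly beyond one. After the 2 probes that passed, the next adjusted p was 0.118.

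**Figure D3:**
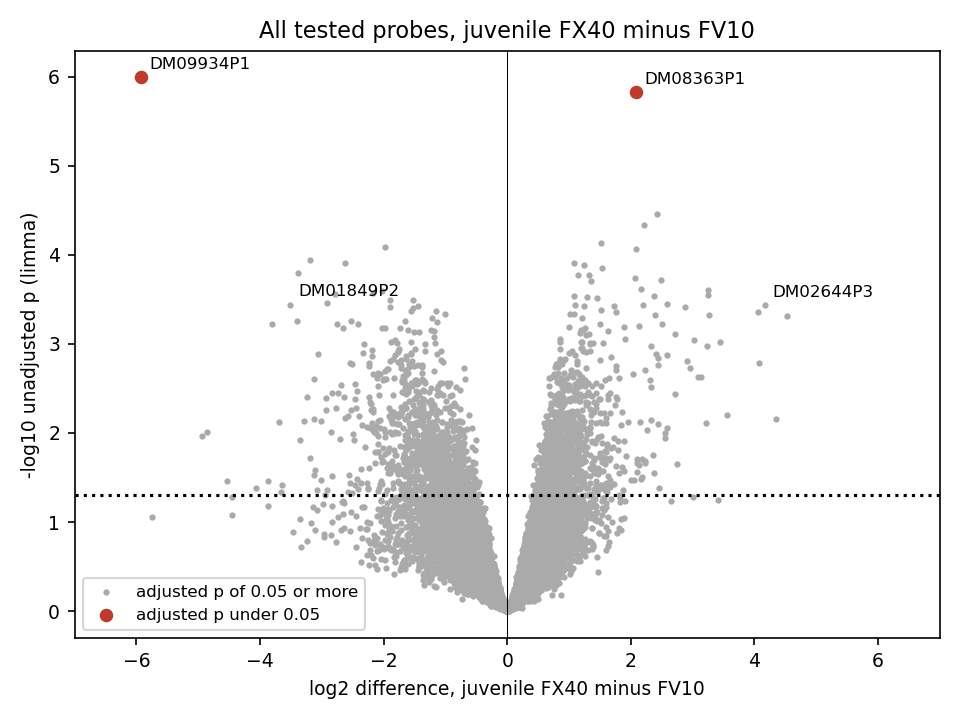
Difference between the compounds (x axis, log2, juvenile FX40 minus FV10) and -log10 of the unadjusted p from limma (y axis) for the 12879 tested probes, with a dotted line at the 0.05 threshold. The 2 probes that passed adjustment are in red, DM09934P1 at -5.92 and DM08363P1 at 2.08.

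Weak and strong probes leaned different ways. The tested probes were divided into 4 sets of equal size by their mean level over the 8 arrays. In the dimmest set, 132 probes were higher and 363 lower in FX40 at an unadjusted p under 0.05, with a median difference of -0.31 over all its probes. In the brightest set 300 were higher and 131 lower, with a median difference of 0.08. The counts of the dimmest set turned round under quantile normalization, with 258 higher and 188 lower. They also did so without FV10 arrays A and B, with 125 higher and 77 lower. The median difference of that set shrank but stayed negative, at -0.03 and -0.05 in these settings. The brightest set kept more higher than lower probes in both, with 274 and 126 under quantile normalization and 136 and 35 without these arrays. Over all 4 sets quantile normalization gave 1448 higher and 883 lower, beside the 1092 and 1134 above, and the authors' deposited log2 values put 1384 above and 915 below. The median over all probes, -0.04 as reported, became 0.07 after quantile normalization and -0.21 after normexp background correction.

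Overall signal strength was compared next, and its ranges in the compound groups overlapped. The 75th percentile of the processed signal lay between 332.7 and 420.6 intensity units in FX40 and between 204.3 and 396.6 in FV10, and its log2 averaged 8.53 ± 0.15 in FX40 and 8.06 ± 0.47 in FV10 (SD, n = 4 each; difference 0.47, two-sided exact permutation p = 0.143, adjusted over 3 measures 0.214). Its part in the lean of dim probes was not tested beyond a fit with brightness as a covariate, in which the dimmest set had 146 probes higher and 210 lower. The share of probes well above background was 77.8% ± 4.46 in FX40 and 77.8% ± 2.09 in FV10 (SD, n = 4 each; two-sided exact permutation p = 0.971).

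More probes reached the upper limit of the scanner in FX40. Between 102 and 109 probes were saturated on an FX40 array and between 66 and 78 on an FV10 array, with means of 105.25 ± 3.77 and 73 ± 5.10 (SD, n = 4 each). The ranges did not overlap, and the two-sided exact permutation p of 0.0286 is the smallest that 4 against 4 arrays allow (adjusted over 3 measures 0.0857). The 16 juvenile arrays other than FV10, the FX40 arrays among them, had between 96 and 171 saturated probes, so FV10 was the low group. Of the 37 probes saturated on an FX40 array and on no FV10 array, 13 had a higher and 24 a lower scaled level in FX40, with a median difference of -0.07.

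Replicate arrays of FX40 resembled each other more than those of FV10. Over the 8399 probes above background on all 8 arrays, the median SD was 0.34 in FX40 and 0.56 in FV10, and the SD was the larger in FV10 for 6429 of them (76.5%). An SD above 1 was seen for 4.99% of probes in FX40, 15.8% in FV10, 8.11% in NP20, 10.2% in NP60 and 6.85% in acetone, in each case over the probes above background on all 4 arrays of the group. Array pairs correlated at 0.939 to 0.964 within FX40 and at 0.879 to 0.936 within FV10, with 6 pairs each. The 16 pairs of an FX40 with an FV10 array correlated at 0.878 to 0.963, with a median of 0.915 against 0.922 within FV10. An FV10 array was therefore about as far from its own group as from FX40, and these correlations across probes share the probe set, the platform and, for some pairs, the slide.

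Within FV10, arrays A and B were unlike C and D. On the first principal component of the 20 juvenile arrays, which held 20.8% of the variance, FV10 A lay at 126.1 and FV10 B at 90.3, while FV10 C lay at -6.85, FV10 D at 21.5, and the 4 FX40 arrays between -21.6 and 33.2. The 12 arrays of other treatments lay between -45.5 and 10.1. On the second component (15.8% of the variance) FV10 C lay at -63.1, away from the FX40 arrays, which lay between 6.06 and 41.7. It was not alone there, since NP20 array A lay at -65.0 and NP60 array B at -82.5. FV10 D correlated better with the FX40 arrays, at a mean of 0.957, than with its own group, at 0.924. Arrays A and B of FV10 also had the lowest 75th percentiles of signal of the 20 juvenile arrays, 204.4 and 204.3 intensity units. Those of C and D were 396.6 and 305.1. Whether the split within FV10 is tied to signal strength was not tested.

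**Figure D4:**
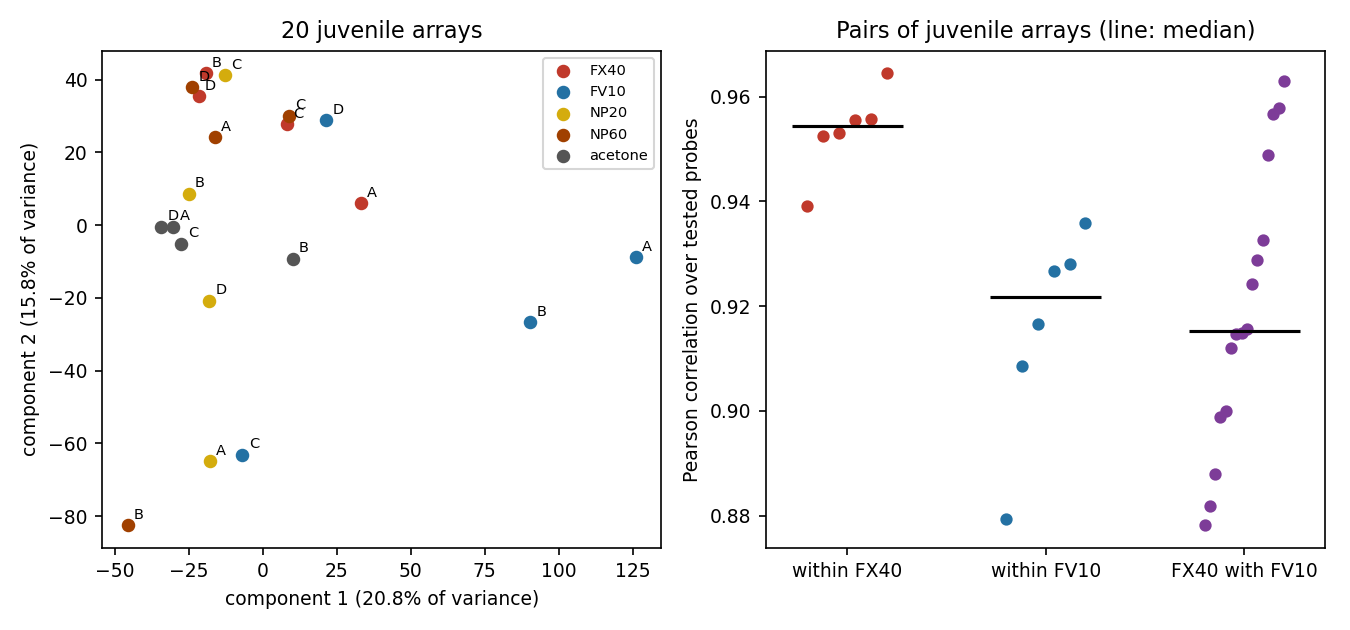
Left, the 20 juvenile arrays on the first 2 principal components (axes in component units, with the percent of variance), coloured by treatment and labelled by replicate letter. Right, Pearson correlation over tested probes (y axis) for pairs of arrays within FX40, within FV10 and between them, with lines at the medians of 0.954, 0.922 and 0.915.

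The counts of larger differences were set out by FV10 array. Of 781 probes with complete values that were at least 2-fold lower in FX40 at an unadjusted p under 0.05, FV10 arrays A and B both lay above all 4 FX40 values for 714, C and D both did for 227, and all 4 did for 197 (25.2%). Of 422 such probes higher in FX40, A and B both lay below the FX40 values for 364, C and D both did for 207, and all 4 did for 178 (42.2%). These probes were chosen by the FX40 minus FV10 difference of the same arrays, so the counts are a description. Over all 12611 probes A and B both lay above the FX40 values for 28.1% and C and D both did for 5.95%, and the shares below the FX40 values were 20.2% for A and B and 10.6% for C and D. Singly, FV10 arrays A to D lay above the whole FX40 range for 42.4%, 36.8%, 18.1% and 21.3% of the probes, and below it for 28.7%, 27.1%, 30.8% and 19.5%. Array C was thus the one most often below. Without FV10 arrays A and B together the unadjusted count fell to 729 probes (537 higher, 192 lower) and no probe passed adjustment, with 2 FV10 arrays left. Without FV10 array C the count that passed adjustment was 838 (342 higher, 496 lower).

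Both compounds were then set against the mean of the 12 other juvenile arrays. These 12 arrays include the acetone controls, and they entered the choice of probes only through the shared estimate of the spread and the detection filter. Over the 1092 probes higher in FX40 the median departure from the mean of those 12 arrays was 0.05 in FX40 and -0.83 in FV10, and FV10 was the farther for 933 (85.4%). Over the 1134 probes lower in FX40 it was 0.03 in FX40 and 1.20 in FV10, and FV10 was the farther for 996 (87.8%). Over all 12879 tested probes FV10 was the farther for 69.1%. FX40 and FV10 lay on opposite sides of that mean for 618 of the higher probes (56.6%), for 535 of the lower ones (47.2%) and for 36.0% of all tested. The higher and lower probes were chosen by the difference between these same FX40 and FV10 arrays, and FV10 was the more spread group. Such a choice can by itself raise both kinds of share above those of all tested probes, so the shares are a description. By array, the median departure over the probes higher in FX40 was -1.34, -1.08, -0.41 and -0.46 in FV10 A to D, and over the probes lower in FX40 it was 1.88, 1.75, 0.50 and 0.79. The sign of these values follows largely from choosing the probes by the same FV10 arrays, and they are given for their sizes, which were smaller in C and D than in A and B. Over all tested probes the median departure was 0.35, 0.22, -0.01 and 0.12 in FV10 A to D.

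Some probes varied more within a compound than between compounds. DM07936P1 had the largest SD in FX40, 3.87, with levels of 6.03, -3.24, 2.92 and 2.71 in FX40 and of 2.74, 4.21, 5.43 and 1.45 in FV10. DM07102P4 had an SD of 3.64 in FX40, where arrays B and D were low at -2.38 and -0.10 and arrays A and C high at 5.46 and 4.11, against 2.98 to 4.41 in FV10. In FV10 the largest SD was that of DM07028P2, 4.02, with levels of 5.17, 4.26, -3.51 and -0.00, against -0.73 to 3.81 in FX40. DM05761P3 had an SD of 3.997 in FV10, where array C stood alone at -2.39 and the other FV10 arrays lay between 5.22 and 5.79. The compound groups overlapped for each of these probes on the arrays that gave a value.

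The arrays lay on 7 slides, and a single slide held juveniles of both compounds, with FX40 array A and FV10 array D on it. Within that slide the FX40 array was 1.91 higher for DM08363P1 and 4.45 higher for DM02644P3, and the differences were -5.57 for DM09934P1 and -4.15 for DM01849P2. Since all FX40 values of these probes lie beyond all FV10 values, the direction within the slide was fixed and the sizes alone are informative. The median over 12863 probes was 0.04. With slide as a fixed block no probe passed adjustment, DM08363P1 having a limma adjusted p of 0.389 and DM09934P1 one of 0.0881. With slide as a random block the 2 probes that had passed without a block passed again.

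The same contrast in adults used other animals and arrays. Adult females were 8 to 9 days old at the start, carried eggs, and were exposed for 10 to 14 days, so age and exposure time differ from the juveniles, and the labels do not say how many females made a sample. Of 12544 probes tested in adults none (0%) passed an adjusted p of 0.05 in limma, while 971 (7.74%) had an unadjusted p under 0.05, 248 higher (1.98%) and 723 lower (5.76%) in FX40, where 627 would be given by chance. The groups did not overlap for 552 of 12435 probes with complete values (4.44%), 194 higher (1.56%) and 358 lower (2.88%). With array weights 19 passed adjustment. Quantile normalization gave 482 higher and 507 lower at an unadjusted p under 0.05.

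Neither probe that passed in juveniles passed in adults. DM08363P1 stood at 5.92, 5.63, 4.76 and 5.31 in adult FX40, against 5.23, 5.17, 6.54 and 5.53 in adult FV10. The values were interleaved, with a difference of -0.21 (SE 0.37, limma adjusted p = 0.907), and the stage difference of 2.29 (SE 0.47) had a limma adjusted p of 0.116. DM09934P1 stood at 6.37, 0.45, -1.24 and 1.10 in adult FX40, against 6.68, 0.57, 0.55 and 0.21 in adult FV10. A single array of each of these 2 adult groups was high, at the level of the juvenile FV10 arrays, and the difference was -0.33 (SE 1.97, limma adjusted p = 0.974). Adult acetone arrays B, E, F and G stood at 5.07, 5.69, -3.15 and 1.22. Adult NP20 array C stood at 5.74 and the other NP20 arrays between -0.65 and 1.90, and the highest adult NP60 array at 2.15. DM02644P3 gave 2.41, 5.78 and 5.96 in 3 adult FX40 arrays and 1.29, 0.37, 0.01 and 5.66 in adult FV10. Its adult difference was 2.89 (SE 1.62, 95% interval -0.54 to 6.31, limma adjusted p = 0.663).

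Over all probes the juvenile and adult differences had the same sign more often than not. Over the 12343 probes tested in both, their Pearson correlation was 0.446 and the sign was the same for 68.9%. No array is shared, but slides are, and the points are not independent. The mean log2 75th percentile was 8.43 ± 0.35 in adult FX40 and 7.81 ± 0.55 in adult FV10 (SD, n = 4 each), with overlapping ranges of 276.5 to 483.6 and 136.4 to 346.7 intensity units and a difference that was not tested. Of 1073 probes lower in juvenile FX40 at an unadjusted p under 0.05, 933 (87.0%) were lower in adult FX40 too, with median differences of -1.18 in juveniles and -0.60 in adults. Of 1078 higher ones 850 (78.8%) were higher in adults too, with medians of 0.89 in juveniles and 0.24 in adults. With brightness as a covariate the correlation was 0.385, and without juvenile FV10 arrays A and B it was 0.190, with the same sign for 55.5%.

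**Figure D5:**
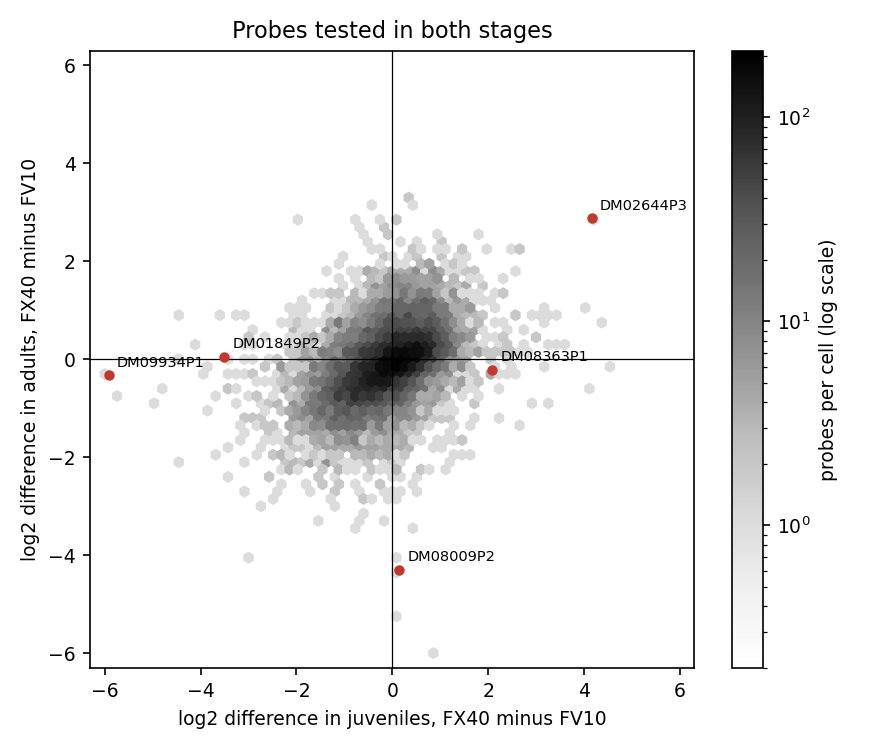
Difference of FX40 minus FV10 in adults (y axis, log2) against that in juveniles (x axis, log2) for the 12343 probes tested in both stages, with shading for the number of probes in each cell on a log scale. The cloud leans along the diagonal (Pearson 0.446), and DM08009P2 lies at 0.15 in juveniles and -4.30 in adults. DM02644P3 lies far out along the diagonal, with an adult 95% interval of -0.54 to 6.31. The other 3 named juvenile probes have adult differences near 0, with wide 95% intervals for DM09934P1 (-4.46 to 3.80) and DM01849P2 (-2.77 to 2.87).

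A test of the difference between the stages passed for 1 of 13278 probes (0.00753%), and 498 (3.75%) had an unadjusted p under 0.05, below the 664 that chance would give, with 337 higher (2.54%) and 161 lower (1.21%). That probe was DM08009P2. Juvenile levels were 4.83, 4.33, 4.66 and 4.43 in FX40 and 4.89, 4.48, 3.91 and 4.37 in FV10, with a difference of 0.15 (95% interval -0.41 to 0.71). Adult levels were -1.92, -0.23, -2.78 and 0.82 in FX40 and 2.72, 3.78, 3.73 and 2.85 in FV10. The juvenile groups overlapped and the adult groups did not. The stage difference was 4.45 (SE 0.79, limma adjusted p = 0.0338), while the adult difference alone, -4.30 (SE 0.72), had a limma adjusted p of 0.149. The stage call of DM08009P2 held in 13 of 29 alternatives and was lost in 16, among them normexp, array weights, the replicate block and outlier spots kept, with a limma adjusted p of up to 0.523. DM07014P1 came next, with a stage difference of 6.82 and a limma adjusted p of 0.0977. The interval of a stage difference had a median half-width of 1.36, so a probe that failed this test is not shown to act alike in the 2 stages.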

How the data were processed

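Whole-animal RNA, Cy3-labelled, was hybridised to 1-colour Agilent arrays. Per the file headers, spots were quantified with Feature Extraction 10.7.3.1, and the deposited scanner files hold the processed signal of each spot as an intensity on a linear scale, already background-subtracted. A deposited table covering all arrays gives log2 values, which followed quantile-normalized signals centred per probe (correlation per juvenile array 0.999 to 1.00). Its column medians in juveniles ran from -0.0713 to 0.0931, and any further step behind it is not given here.

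Each level was the log2 processed signal, less the 75th percentile of its array. Control spots (15208 of 15744 spots were not controls) and outlier-marked spots were left out, saturated spots kept, and the spots of the 870 duplicated probes averaged. A probe was tested if well above background on at least 4 of the 20 arrays of its stage. limma 3.58.1 (lmFit, eBayes) in R 4.3.3 fitted the 5 groups of a stage together, and all 40 arrays for the difference between stages, with p-values adjusted by Benjamini-Hochberg over every probe tested and a threshold of 0.05. The labels place juvenile replicates in separate vessels. For adults they do not say how replicates were kept, so those p-values measure the spread between samples, which may be partly technical. Single array measures were compared with two-sided exact permutation tests. No array pair was a duplicate (highest correlation 0.974), and 4 arrays a group limit the precision.

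On simulated data with 12431 probes of the juvenile comparison, a log2 change of 0.5 was called in 2% of changed probes, one of 1 in 16%, one of 2 in 64% and one of 3 in 74%. Each size was given to 50 probes, and the noise was normal, independent between arrays and of 1 SD per probe. In the data the FV10 arrays were more spread than the FX40 arrays.

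The comparison, lists and rules were chosen with earlier results of these data known. Because no probe has a gene name (none of 14338 is listed in the RefSeq table of assembly ASM2063170v1.1), the planned gene lists had no member. Named probes were, per comparison, at most 2 higher and 2 lower, first those past the threshold, then the largest differences at an unadjusted p under 0.05 among unsaturated probes above background on all arrays and not overlapping (no overlap rule for the stage difference). To these came the 2 highest bounds in each direction among probes detected for 1 compound and not the other, and the 2 largest SDs per compound. The alternatives were normexp background correction (offset 50, on median signals, since the files hold no mean signals), quantile normalization, both together, the deposited table, other filters, other sets of arrays, replicate letter, slide, array weights, brightness and arrays left out. The correlation between stages was recomputed under them after the data had been seen.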

Additional observations from a re-analysis of the deposited data

Results flagged for a closer look

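In 6 of 70 groups of 4 arrays a single array lay far from the other 3. A rate of 1 in 20 would give 3.5 for groups not chosen by their values. The named probes were chosen from these same values, some for a large SD, so these counts cannot be set against each other. The gap to the nearest other array took up 0.8487 of the range of DM08363P1 in juvenile NP20 (array D, 4.61), 0.8593 of that of DM06973P1 in juvenile FX40, where no array was well above background, and 0.9299 of that of DM05761P3 in juvenile FV10 (array C, -2.39). It took up 0.8514 for DM01849P2 in juvenile acetone (array A, 4.83), a group whose values all lay between 4.10 and 4.83. In adults it took up 0.8544 for DM07014P1 in FX40, where array G stood at 3.38 and the others between -4.37 and -3.24, and 0.9452 for DM09934P1 in FV10, where array A stood at 6.68 and the others between 0.21 and 0.57.

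DM08009P2 differed between the stages by 4.445 in its FX40 minus FV10 difference (limma adjusted p = 0.0338, test of the stage difference itself), the adult FX40 arrays being the low ones.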

How the results depend on the processing

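Juvenile calls numbered 2 with the settings used. They were 4 with quantile normalization, 4 with the deposited log2 table, 630 with normexp plus quantile normalization, 32 with the 8 compared arrays alone, 7 with brightness as a covariate, 0 with slide as a fixed block, 0 without FV10 arrays A and B, and 0 to 838 with single arrays left out (0 without FX40 B, 1 without FX40 D, 4 without FX40 A, 6 without FV10 D, 838 without FV10 C). The cause of these changes was not tested. With the replicate block there were 0 juvenile calls and 0 stage calls, both probes that had passed having an adjusted p of 0.0613. The replicate letters are no pairing in the labels, and deviations of same-lettered FX40 and FV10 arrays correlated at 0.264, -0.166, -0.0836 and 0.142 (A to D).

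Both juvenile calls kept their direction under all 22 alternatives, DM08363P1 between 1.97 and 2.42 (adjusted p under 0.05 in 16) and DM09934P1 between -6.63 and -4.29 (in 18). DM02644P3 passed in 3 of the 22 and DM01849P2 in 3. Unadjusted juvenile counts ran from 699 (normexp) to 3266 (without FV10 C), with 1400 under the slide block, 1212 without FV10 A and 1357 without FV10 B.

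Adult calls, 0 as reported, were 19 with array weights and 0 to 2 with single arrays left out (1 without FX40 B, 2 without FX40 G). Unadjusted adult counts ran from 372 (normexp) to 2353 (array weights). Stage calls, 1 as reported, were 0 with normexp, 0 with the compared arrays alone, 0 with array weights, 0 with outlier spots kept, 3 with normexp plus quantile normalization, 3 with probes above background on all arrays, and 0 to 4 with single arrays left out. DM08009P2 passed in 13 of 29. Unadjusted stage counts ran from 149 to 886. The correlation between stages ran from 0.190 to 0.534 and was 0.341 without adult FV10 A. Signals near background limit the dim probes, whose SE had a median of 0.57 in the dimmest of 4 equal sets and 0.32 in the brightest.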
